A study of Mus musculus with 12 samples.

Results

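The Cd300 and Trem receptors are families of immunoglobulin-like proteins on the surface of myeloid cells, and 10 of their genes were described here out of 55322 rows of an FPKM table of mouse splenic conventional dendritic cells (cDCs). FPKM is a read count scaled by gene length and library total, so levels can be set side by side between genes. The members were the rows with the gene names Cd300a, Cd300c, Cd300c2, Cd300e, Cd300lb, Cd300ld, Cd300lf, Treml2, Treml4 and Trem2, and each name matched 1 row. They were chosen as a set with the values of these 12 libraries in view. Their levels and differences across the groups are therefore a description and carry no p-value, whereas genes outside the set were tested.

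The study compared 4 groups of 3 RNA-seq libraries from sorted spleen cDCs, titled L-cDC1, L-cDC2, M-cDC1 and M-cDC2, and the letters L and M are not spelled out in the labels. The title of the series speaks of cDCs of lymphoid origin. All 12 libraries carry the genotype Il7r-cre; Rosa26-lsl-tdTomato in the labels, whereas the growth text speaks of WT C57BL/6J mice, aged 7 to 8 weeks in every group. In such a reporter mouse, cells that have expressed Il7r, or descend from cells that did, become fluorescent, and whether that signal was used to pick the cells of a library is not stated. The mice are described as naïve, and no treatment is named for any group. Nothing in the labels says that the 3 replicates of a group came from separate mice, so the spread behind a p-value may be technical. With 3 libraries against 3, an exact two-sided permutation test of a single value cannot go below 0.1, so p-values come from a limma model over all genes. Bulk RNA cannot tell fewer cells of a type from less RNA per cell.

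Recovered read totals ran from 15879864 to 24498235 per library. The subset labels held against their defining genes: 10 of 10 cDC1 markers, Xcr1 and Clec9a among them, were higher in cDC1 than in cDC2 by limma, and 10 of 10 cDC2 markers, Sirpa and Irf4 among them, were lower, within M and within L alike. The L libraries held more RNA of B, T and NK cell marker genes, and which cells this RNA came from was not tested. The summed FPKM of 12 B cell markers was 604 to 955 in L-cDC1 against 338 to 383 in M-cDC1, and 882 to 3216 in L-cDC2 against 356 to 384 in M-cDC2. The sum of 11 T and NK cell markers was 11.4 to 21.0 FPKM in L-cDC1 against 0.504 to 0.973 in M-cDC1, and 40.4 to 106 in L-cDC2 against 2.08 to 2.69 in M-cDC2. Their part in the differences between L and M described here was not tested.

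CD300 receptors bind lipids, such as those exposed on dying cells, through a single immunoglobulin domain. The inhibitory members CD300A and CD300LF carry tyrosine motifs (ITIMs) in their own tails, which recruit the phosphatase SHP-1, the product of Ptpn6. The activating members have short tails and borrow the signalling motifs (ITAMs) of an adaptor, either DAP12 (Tyrobp) or the Fc receptor gamma chain (Fcer1g), upstream of the kinase SYK. TREM receptors use DAP12 in a similar way. In the spleen, TREML4 is known as a receptor for dead cells on cDC1s and macrophages.

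Promoter windows of 5 members that stand for both directions of the contrast are printed here, each 250 bases before to 30 bases after the annotated start, from RefSeq on GRCm38.p6, 5′ to 3′ on the gene's strand. RefSeq had a window for 9 of the 10 members, and none for Treml2. Window positions are on that build and cannot be set beside the gene positions below, which the deposited table gives without naming a build. The first 3 belong to genes at their highest level in cDC2 and the last 2 to genes at their highest level in cDC1. Capitals mark matches to 1 of 4 motifs searched on both strands: an Ets motif AGGAAGT, an AP-1 motif TGANTCA, an Ets-IRF composite (GGAA and GAAA with 2 bases between them) and a TATA box TATAAA. The motifs were chosen after the sequences had been seen.
Cd300lb, chr11:114934342-114934621, minus strand: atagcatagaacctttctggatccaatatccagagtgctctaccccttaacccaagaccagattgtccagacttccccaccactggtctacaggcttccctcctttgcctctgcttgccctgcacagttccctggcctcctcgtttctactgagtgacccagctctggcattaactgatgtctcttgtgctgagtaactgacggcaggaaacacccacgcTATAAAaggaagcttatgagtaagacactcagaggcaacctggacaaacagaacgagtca
Cd300ld, chr11:114989857-114990136, minus strand: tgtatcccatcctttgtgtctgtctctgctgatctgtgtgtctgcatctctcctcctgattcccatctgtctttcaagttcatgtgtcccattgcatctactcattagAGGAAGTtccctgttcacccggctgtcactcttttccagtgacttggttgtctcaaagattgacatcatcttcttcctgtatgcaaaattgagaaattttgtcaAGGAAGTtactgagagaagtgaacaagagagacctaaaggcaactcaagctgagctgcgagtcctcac
Cd300lf, chr11:115133963-115134242, minus strand: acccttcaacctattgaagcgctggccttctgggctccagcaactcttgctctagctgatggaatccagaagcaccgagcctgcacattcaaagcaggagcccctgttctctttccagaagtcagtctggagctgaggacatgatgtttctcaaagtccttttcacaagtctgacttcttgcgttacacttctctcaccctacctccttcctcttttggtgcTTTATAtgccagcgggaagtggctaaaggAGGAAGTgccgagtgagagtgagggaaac
Cd300e, chr11:115062010-115062289, minus strand: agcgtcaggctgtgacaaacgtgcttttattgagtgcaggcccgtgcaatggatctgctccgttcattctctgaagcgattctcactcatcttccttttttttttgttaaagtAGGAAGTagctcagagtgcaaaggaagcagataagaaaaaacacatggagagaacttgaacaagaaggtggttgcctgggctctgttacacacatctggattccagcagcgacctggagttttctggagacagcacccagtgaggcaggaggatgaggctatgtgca
Treml4, chr17:48264045-48264324, plus strand: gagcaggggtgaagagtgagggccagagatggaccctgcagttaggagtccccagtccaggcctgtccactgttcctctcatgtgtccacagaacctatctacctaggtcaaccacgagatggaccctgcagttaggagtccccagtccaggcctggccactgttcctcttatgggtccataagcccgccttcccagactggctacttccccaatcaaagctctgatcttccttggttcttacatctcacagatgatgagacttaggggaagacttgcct

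The Ets letters stood in the windows of Cd300c2, Cd300e, Cd300ld and Cd300lf, which is 4 of 9, against 8.65% of 32851 promoter windows of the same length. Cd300ld held them in 2 places. The TATA letters were in the window of Cd300lb and, on the opposite strand, in that of Cd300lf, against 13.1% of all windows. Only Trem2 held the AP-1 letters (7.46% of all windows), and none of the 9 held the Ets-IRF composite (2.55%). Ets letters occurred both in a gene higher in cDC1 (Cd300e) and in genes higher in cDC2. A match describes the letters in the window and is no evidence that a factor binds there.

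Summed over their members, the families ran in opposite directions between the subsets, though Cd300c and Cd300e ran against the Cd300 sum. The summed level of the 7 Cd300 members was 85.8 ± 14.8 FPKM for L-cDC1 and 123 ± 11.4 for M-cDC1 (mean ± SD, n = 3 libraries here and throughout), against 354 ± 8.53 in L-cDC2 and 419 ± 8.51 in M-cDC2. The 3 Trem members summed to 291 ± 12.7 FPKM in the L-cDC1 libraries, 286 ± 25.4 in M-cDC1, 66.8 ± 5.26 in L-cDC2 and 87.0 ± 16.7 in M-cDC2, nearly all of it Treml4.

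Of the 10 members, 8 passed the filter of at least 1 FPKM in at least 3 of 12 libraries, and Treml2 and Trem2 did not. Cd300lb and Cd300ld passed it through their cDC2 libraries alone, which fixes their direction between the subsets. For these 8, the cDC1 and cDC2 libraries did not overlap within M or within L. In both, 3 were higher in cDC1 (Cd300c, Cd300e and Treml4) and 5 were lower (Cd300a, Cd300c2, Cd300lb, Cd300ld and Cd300lf). Of 12434 genes tested, 16.9% were apart and higher in cDC1 and 34.2% apart and lower within M, and 16% and 32.7% within L. The members' median difference was -1.998 on the log2(FPKM + 1) scale within M and -2.13 within L, and the median of all genes tested was -0.18 and -0.19. The members were chosen on the same values, so these counts describe the choice. By limma, 38.1% of all genes tested were called between the subsets within M at an adjusted p under 0.05 (12.7% higher and 25.4% lower in cDC1), and 39.5% within L (12.9% and 26.6%). Rescaling moved the split of the genes called: 33.2% of them were higher in cDC1 within M and 32.7% within L as deposited, against 48.9% and 48.7% after median-of-ratios scaling and 53.4% and 52.6% after quantile normalization, which brought the medians of all genes to 0.04 and 0.02. The directions of the 8 members did not flip under either scaling.

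**Figure D1:**
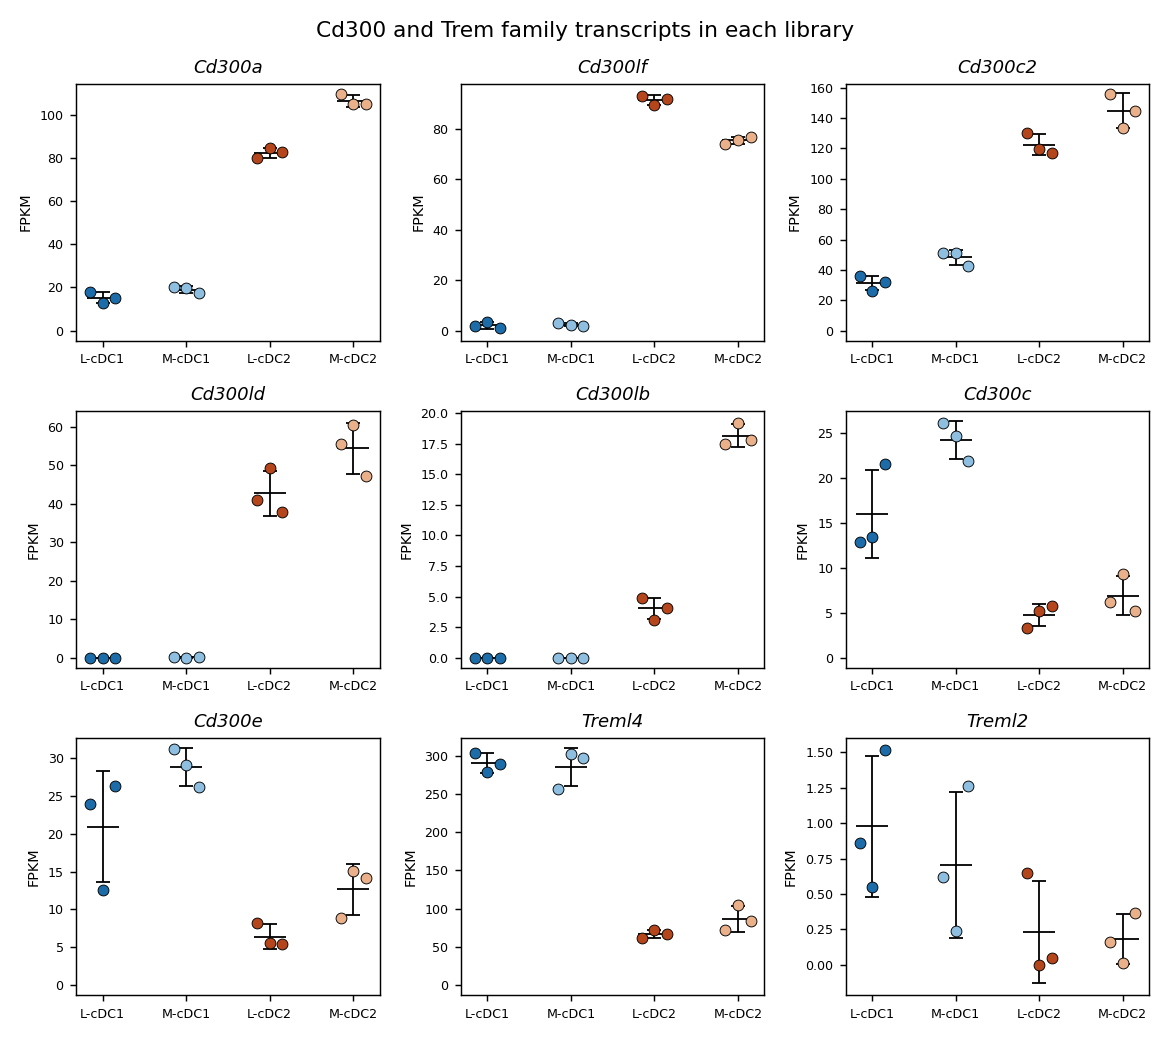
FPKM of 9 Cd300 and Trem genes in each of 12 libraries (points), with the mean (long bar) and SD (short bars) of 3 libraries per group and a separate linear axis per gene. Cd300a, Cd300lf, Cd300c2, Cd300ld and Cd300lb were higher in every cDC2 library than in any cDC1 library, Cd300c and Treml4 were higher in every cDC1 library, Cd300e was so within L and within M, and Treml2 reached at most 1.52 FPKM; Trem2 was at 0 in all 12 and is not drawn.

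Of the inhibitory receptors, Cd300a (chr11:114780867-114795480, plus strand, as the deposited table gives positions) measured 17.9, 12.8 and 15.03 FPKM in the L-cDC1 libraries and 20.03, 19.7 and 17.4 in M-cDC1. It measured 80.0, 84.4 and 82.6 FPKM in L-cDC2 and 109.5, 105 and 105 in M-cDC2. Every cDC2 library was above every cDC1 library, and every M-cDC2 library was above every L-cDC2 library, while the cDC1 groups overlapped. The mean level in cDC2 was 5.59 times that in cDC1 within M and 5.40 times within L. The log2(FPKM + 1) difference, cDC1 minus cDC2, was -2.43 within M and -2.37 within L, each with an SE of 0.115. L minus M was -0.31 in cDC1 and -0.37 in cDC2 on the same scale.

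Cd300lf (chr11:115007040-115024818, minus strand) was the inhibitory receptor with the wider contrast. It measured 1.65, 3.61 and 1.05 FPKM in L-cDC1 and 3.09, 2.16 and 2.03 in M-cDC1, against 93.1, 89.4 and 91.7 in L-cDC2 and 74.1, 75.5 and 76.7 in M-cDC2. Low single digits in every cDC1 library stood against at least 74.1 FPKM in every cDC2 library, at 31.1 times the mean level within M and 43.5 times within L. The log2(FPKM + 1) difference, cDC1 minus cDC2, was -4.49 within M and -4.98 within L (SE 0.226). Among the 8 genes tested it alone was higher in L-cDC2 than in M-cDC2 without overlap, by 0.27 on that scale and 1.21 times by mean level. In cDC1 the L and M libraries overlapped, and the sign of their difference of -0.22 turned without L-cDC1 replicate 3, to 0.04.

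Among the activating receptors, Cd300c2 (chr11:114887547-114892706, minus strand) was the Cd300 gene with the highest mean in all 4 groups. It measured 35.9, 26.4 and 32.1 FPKM in the L-cDC1 libraries, 51.3, 50.9 and 42.5 in M-cDC1, 130.1, 119.9 and 117 in L-cDC2, and 156, 134 and 145 in M-cDC2. No group overlapped another, and the L group was the lower in both subsets. The log2(FPKM + 1) difference between the subsets, cDC1 minus cDC2, was -1.57 within M and -1.93 within L (SE 0.121). L minus M was -0.60 in cDC1 and -0.24 in cDC2.

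Cd300ld (chr11:114873100-114880748, minus strand), which couples to the Fc receptor gamma chain, was near 0 in cDC1. Its 3 L-cDC1 libraries held 7 reads together (0.0200, 0.0365 and 0.0790 FPKM) and its 3 M-cDC1 libraries 24 reads (0.286, 0.0423 and 0.0861 FPKM). In L-cDC2 it measured 40.9, 49.3 and 37.8 FPKM, and in M-cDC2 55.5, 60.4 and 47.1, with the L and M ranges overlapping. The mean level in cDC2 was 393 times that in cDC1 within M and 945 times within L. These ratios rest on few reads in cDC1, and the log2(FPKM + 1) differences of -5.60 within M and -5.38 within L (SE 0.154) depend on the pseudocount. Between L and M the difference, L minus M, was -0.12 in cDC1 and -0.34 in cDC2. Of the distinct 50-base words in its transcripts, 3.89% also occur in transcripts of other genes, which are Cd300lf and the Cd300ld2, Cd300ld3, Cd300ld4 and Cd300ld5 copies.

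Cd300lb (chr11:114813607-114825212, minus strand), a DAP12-coupled receptor, had the largest log2 difference between L and M among the 8 genes tested. It was at 0 in all 3 L-cDC1 libraries, where 0 reads allow at most 0.0544 FPKM at 3 reads a library, and at 0.0153, 0 and 0.0156 FPKM in M-cDC1, from 2 reads in all. It measured 4.89, 3.11 and 4.10 FPKM in L-cDC2 (755 reads) and 17.4, 19.2 and 17.8 in M-cDC2 (3142 reads). The cDC2 groups did not overlap, and the M-cDC2 mean was 4.50 times the L-cDC2 mean. L minus M in cDC2 was -1.94 on the log2(FPKM + 1) scale (SE 0.174), and it kept between -2.21 and -1.80 over 22 alternatives. The difference between the subsets, cDC1 minus cDC2, was -4.24 within M and -2.32 within L on that scale, and depends on the pseudocount. Against that floor of 3 reads a library, Cd300lb was at least 74.2-fold higher in L-cDC2 than in L-cDC1. By reads, the M-cDC2 level was 1638 times the M-cDC1 level, with a 95% exact interval of 453 to 13527 that covers counting error only.

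The other pair of Cd300 genes ran the opposite way between subsets. Cd300c (chr11:114846942-114859983, minus strand) measured 12.9, 13.4 and 21.6 FPKM in the L-cDC1 libraries, 26.1, 24.7 and 21.9 in M-cDC1, 3.33, 5.18 and 5.76 in L-cDC2, and 6.17, 9.35 and 5.25 in M-cDC2. Every cDC1 library was above every cDC2 library, and the L-cDC1 libraries lay below the M-cDC1 libraries, with L-cDC1 replicate 3 at 21.6 FPKM close to M-cDC1 replicate 3 at 21.9. The cDC1 mean was 3.50 times the cDC2 mean within M and 3.36 times within L, and the log2(FPKM + 1) differences were 1.70 and 1.55 (SE 0.232). The L minus M difference was -0.60 in cDC1 and -0.45 in cDC2, and the cDC2 groups overlapped.

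Cd300e (chr11:114942743-114953003, minus strand), whose human counterpart signals through DAP12, measured 23.9, 12.5 and 26.3 FPKM in L-cDC1 and 31.2, 29.1 and 26.1 in M-cDC1. It measured 8.26, 5.56 and 5.41 FPKM in L-cDC2 and 8.82, 15.02 and 14.1 in M-cDC2. Within L and within M the cDC1 libraries were above the cDC2 libraries, and every M-cDC2 library was above every L-cDC2 library, while the cDC1 groups overlapped. The log2(FPKM + 1) difference, cDC1 minus cDC2, was 1.16 within M and 1.52 within L (SE 0.255). L minus M was -0.50 in cDC1 and -0.87 in cDC2, where the M mean was 1.97 times the L mean. L-cDC1 replicate 2 was the lowest cDC1 library, and without it the cDC1 value was -0.19.

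Treml4 (chr17:48571323-48582388, plus strand), the dead cell receptor, was the member with the highest level in cDC1. It measured 304, 278 and 289 FPKM in L-cDC1 and 256, 302 and 298 in M-cDC1, so the cDC1 groups overlapped and differed by 0.03 on the log2(FPKM + 1) scale (SE 0.127), with a sign that turned in 3 of 22 alternatives. It measured 61.3, 72.4 and 66.2 FPKM in L-cDC2 and 71.9, 105 and 83.3 in M-cDC2, and these also overlapped. Its cDC1 mean was 3.29 times the cDC2 mean within M and 4.36 times within L, with log2(FPKM + 1) differences of 1.72 and 2.11. L minus M in cDC2 was -0.36. In cDC2 it was among the 4 most abundant members.

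The other pair of Trem genes was near or at 0. Treml2 (chr17:48606526-48619561, plus strand), known from B cells, T cells and granulocytes, measured 0.860, 0.549 and 1.52 FPKM in the L-cDC1 libraries, 0.616, 0.239 and 1.26 in M-cDC1, 0.649, 0 and 0.0448 in L-cDC2, and 0.158, 0.0128 and 0.367 in M-cDC2. The groups overlapped in each of the 4 pairs compared. Trem2 (chr17:48653429-48661175, plus strand), the receptor of microglia and tissue macrophages that binds lipids and apolipoprotein E, was at 0 reads in all 12 libraries, which allows at most 0.0382 FPKM at 3 reads a library.

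Between L and M, the libraries of fewer members were apart than between the subsets. In cDC1, 2 of the 10, Cd300c and Cd300c2, had L libraries entirely below the M libraries, as did 5.63% of all genes tested. In cDC2 the libraries did not overlap for 5 of the 10: Cd300a, Cd300c2, Cd300e and Cd300lb were lower in L and Cd300lf was higher (6.92% of all genes were apart and lower in L, and 9.96% higher). The members' median L minus M difference was -0.26 in cDC1 and -0.36 in cDC2 on the log2(FPKM + 1) scale, against 0.02 and 0.03 for all genes tested. The value of Cd300lb in cDC2, -1.94, was wider than the subset differences of Cd300c and Cd300e. With at most 2 reads of Cd300lb in a cDC1 group, its L minus M there was -0.01, so the difference between the subsets in L minus M, 1.93 (SE 0.245), restates the cDC2 value.

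**Figure D2:**
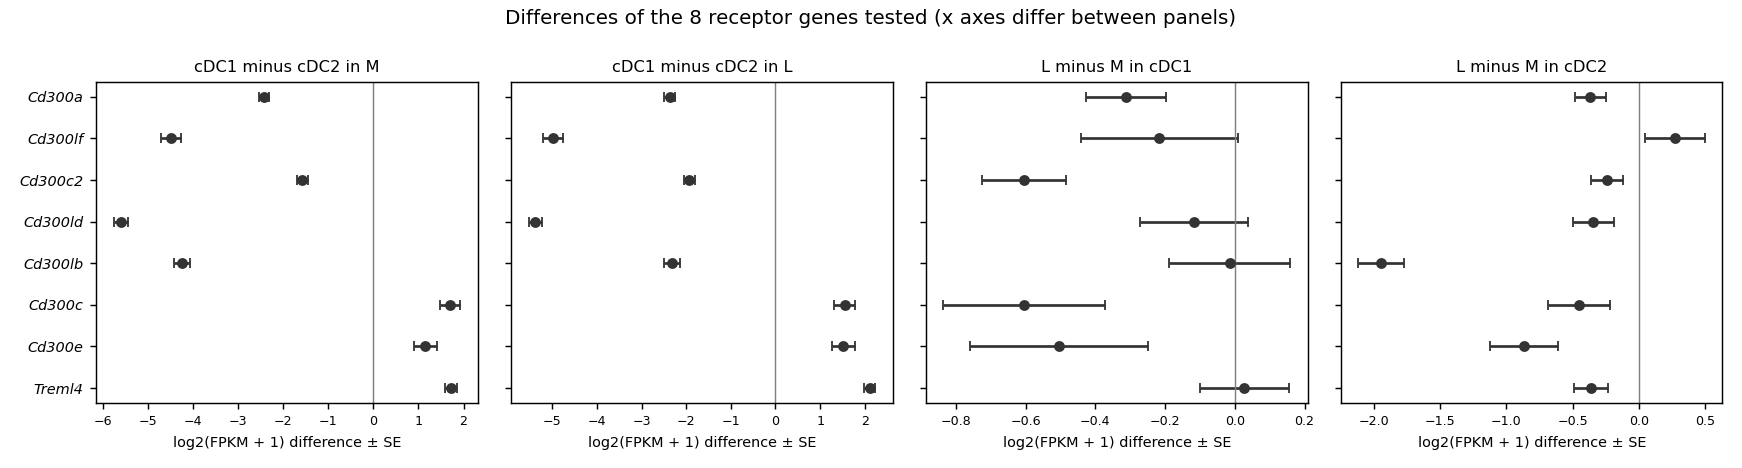
Log2(FPKM + 1) difference ± SE of the 8 Cd300 and Trem genes tested, 1 panel per comparison with its own x axis, from limma on 12 libraries. The points between cDC1 and cDC2 reach from -5.60 to 2.11, whereas those between L and M lie between -0.87 and 0.27 apart from Cd300lb in cDC2 at -1.94.

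Some markers of monocytes and macrophages were also lower in L-cDC2 than in M-cDC2. Of 20 such genes, 15 were tested, and 5 were lower in L-cDC2 than in M-cDC2 by limma, as were 0.788% of all genes. Csf1r, the receptor for the growth factor CSF1, measured 24.1 ± 3.26 against 65.3 ± 2.16 FPKM (log2 difference -1.41, limma adjusted p = 0.000106). The others were Lyz2 (252 against 932 FPKM), Adgre4 (4.64 against 24.5), Ace (0.412 against 4.6, a gene that passed the filter through M-cDC2 alone) and Cx3cr1 (2.22 against 7.10, limma adjusted p = 0.0163). The Cx3cr1 call was lost in 5 of 22 alternatives. These were without M-cDC2 replicate 1 (limma adjusted p = 0.0698) or 2 (0.102), with a pseudocount of 0.1 (0.202), with no filter (0.0735) and with only the 6 libraries compared (0.125). The call of Adgre4 was lost with a pseudocount of 0.1 (limma adjusted p = 0.0813). The summed FPKM of the 20 genes was 718 to 878 in L-cDC2 and 1500 to 1722 in M-cDC2, and 11 of 20 did not overlap, all 11 lower in L-cDC2 (6.92% of all genes). In cDC1, where 0.394% of all genes were called, 0 of 15 were called by limma (3 at an unadjusted p under 0.05, and 0 by limma-voom), at sums of 590 to 648 FPKM in L and 717 to 746 in M. Vcan was at 0 in M-cDC2, and Mertk and F13a1 were at 0 in both cDC1 groups. Other marker lists also held genes called lower in L-cDC2 by limma. Among them were 2 of 10 cDC1 markers and 1 of 10 cDC2 markers, with 0 called higher in either list. The part of the monocyte and macrophage genes in the level of Cd300lb was not tested.

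The order of the members also changed with the subset. In L-cDC1 and M-cDC1 it ran from Treml4 over Cd300c2, Cd300e, Cd300c, Cd300a, Cd300lf, Treml2 and Cd300ld to Cd300lb. Cd300e, Cd300c and Cd300a could not be ordered beyond their spread in L-cDC1, but did not overlap in M-cDC1. In L-cDC2 the order was Cd300c2, Cd300lf, Cd300a, Treml4 and Cd300ld, each apart from the next, with Cd300e, Cd300c and Cd300lb below them and overlapping. In M-cDC2, Cd300c2 came first, Cd300a overlapped Treml4 and Treml4 overlapped Cd300lf, and Cd300lb stood above Cd300e and Cd300c. Cd300c2 made up a like share of the Cd300 sum in every group, at 36.7% in L-cDC1, 39.2% in M-cDC1 and 34.6% in both cDC2 groups. Cd300e and Cd300c made up 24.4% and 18.6% of it in L-cDC1 but 1.81% and 1.34% in L-cDC2. Cd300lf went from 2.45% in L-cDC1 to 25.8% in L-cDC2 and from 1.98% in M-cDC1 to 18.01% in M-cDC2. The share of Cd300lb was 1.14% in L-cDC2 and 4.33% in M-cDC2.

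**Figure D3:**
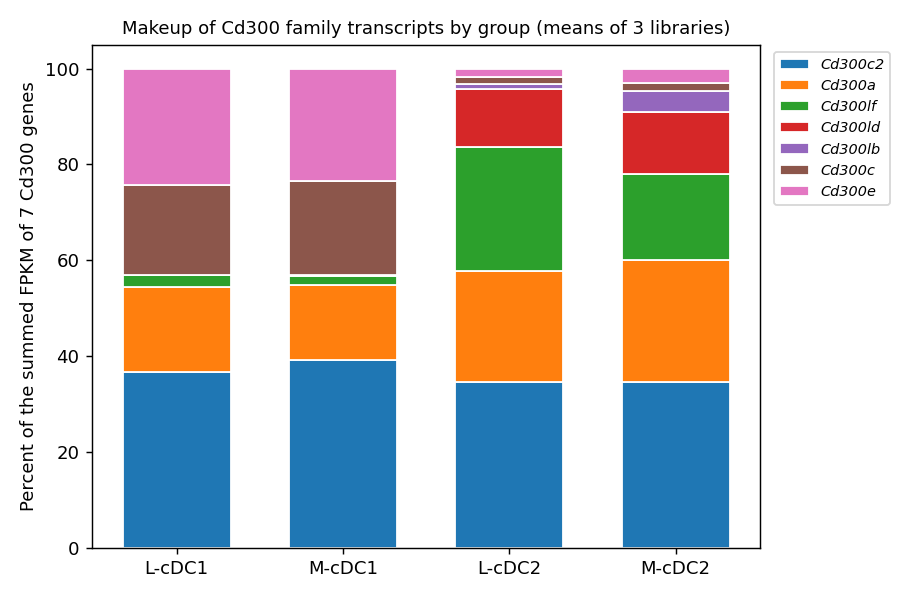
Share of each of 7 Cd300 genes in their summed FPKM, in percent, as 1 stacked bar per group from the means of 3 libraries. Cd300c2 takes between 34.6% and 39.2% in every group, Cd300e and Cd300c fill much of the rest in cDC1, and Cd300lf, Cd300a and Cd300ld do so in cDC2.

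The families lie in a pair of clusters. By the table's own coordinates, whose build is not given in the sources used here, 11 Cd300 genes span 244 kb of chromosome 11 (chr11:114780867-115024818) and 6 Trem genes span 134 kb of chromosome 17 (chr17:48539796-48674204). Genes higher in cDC1 lie among genes higher in cDC2 along the Cd300 cluster: Cd300c lies between Cd300lb and Cd300ld, and Cd300e lies between the Cd300ld copies and Cd300lf. Some neighbours shared a direction, as Cd300a and Cd300lb, and Cd300ld and Cd300c2, were higher in cDC2. Cd300ld2, Cd300ld3, Cd300ld4 and Cd300ld5, between Cd300c2 and Cd300e, were at 0 in all 12 libraries. Of their distinct 50-base words, 31% in Cd300ld2, 82.1% in Cd300ld3, 93.8% in Cd300ld4 and 100% in Cd300ld5 also occur in another gene. Reads from Cd300ld3, Cd300ld4 and Cd300ld5 can therefore be hard to assign, and their 0 is uncertain. This limit is smaller for Cd300ld2, most of whose words occur in no other gene. Cd300a and Cd300c2 also share words with each other. Of the words of Cd300c2, 7.16% also occur in Cd300a. Of the words of Cd300a, 3.18% also occur in another gene, counting Cd300c2 together with genes outside the family such as Klhdc2 and Zfp646. Cd300c, Cd300e, Cd300lb and Treml4 share none.

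**Figure D4:**
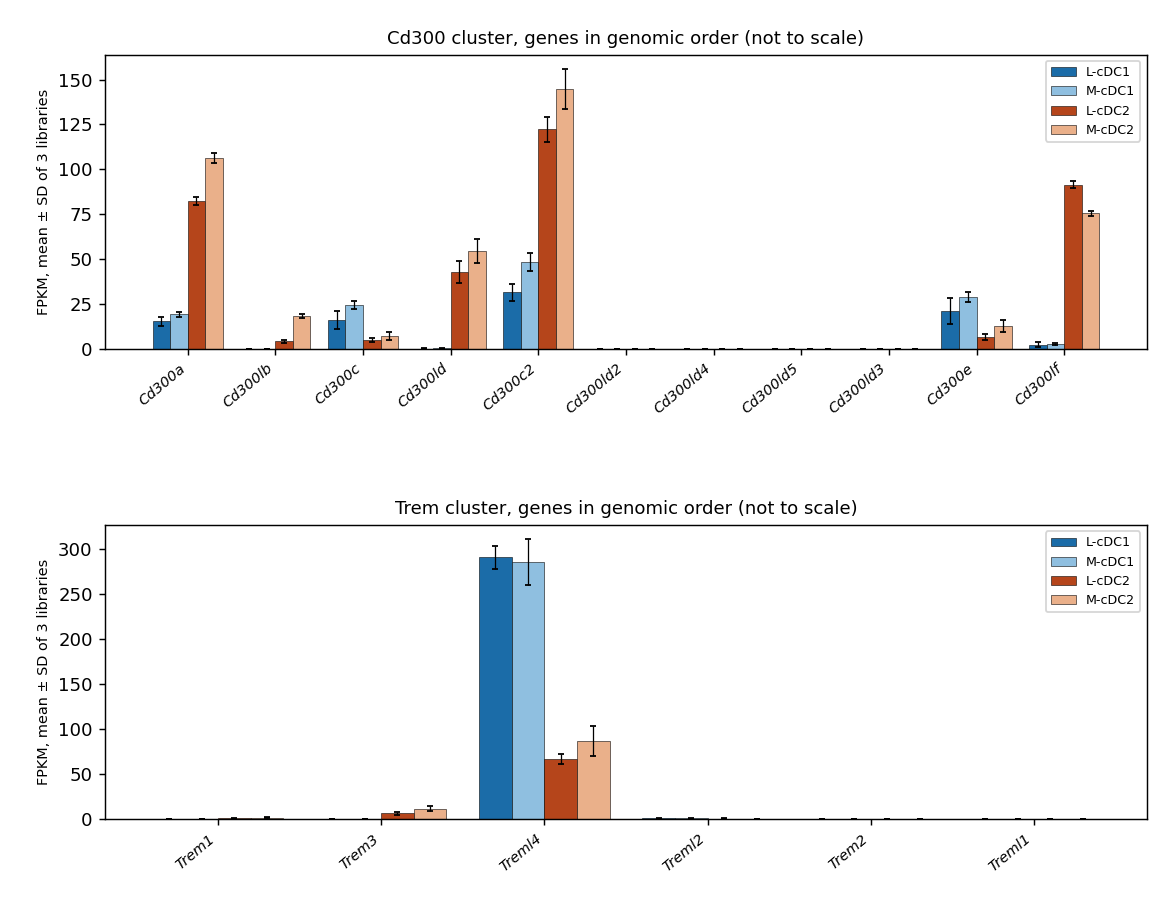
Mean FPKM ± SD of 3 libraries per group for the genes of the Cd300 cluster (top) and the Trem cluster (bottom), in genomic order and not to scale. Cd300c and Cd300e, higher in cDC1, lie among Cd300a, Cd300lb, Cd300ld, Cd300c2 and Cd300lf, which are higher in cDC2. In the Trem cluster Treml4 is higher in cDC1 whereas Trem3, before it, is higher in cDC2.

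Other genes of the families were tested where they could be. Of 10 listed symbols, 8 had a row and 2 passed the filter. Trem3, a DAP12-coupled receptor of mouse macrophages and granulocytes, lies next to Treml4 and ran the other way. It measured 0.0532, 0 and 0 FPKM in the L-cDC1 libraries, 0, 0 and 0.229 in M-cDC1, 4.90, 6.14 and 7.87 in L-cDC2, and 11.6, 14.1 and 9.24 in M-cDC2. Trem3 passed the filter through its cDC2 libraries alone, which fixes its direction between the subsets, so the p-values of that contrast add no support for it. It was lower in every cDC1 library than in any cDC2 library. The difference was -3.54 on the log2(FPKM + 1) scale within M (SE 0.206, limma adjusted p = 9.9e-09) and -2.82 within L (adjusted p = 1.03e-07). L minus M in cDC2 was -0.79, without overlap but short of the threshold (limma adjusted p = 0.0843).

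Cd300lg, an endothelial member of the family that lies outside the cluster (chr11:101932335-101946446), was low. It measured 0.475, 0.369 and 0.403 FPKM in L-cDC2 against 1.09, 1.96 and 2.94 in M-cDC2, and at most 0.130 in cDC1. It passed the filter through its M-cDC2 libraries alone, so it was tested because it was high there. L minus M in cDC2 was -1.03 on the log2(FPKM + 1) scale (SE 0.243, limma adjusted p = 0.0493), and this call was lost in 17 of 22 alternatives, among them 11 that left out 1 library, with adjusted p-values from 0.0151 to 0.321. Within M it was lower in cDC1 at -1.48 (adjusted p = 0.000285). Trem1, the DAP12-coupled receptor of neutrophils and monocytes, did not pass the filter and measured 2.25, 0.631 and 1.91 FPKM in M-cDC2 against 0, 0.735 and 0.975 in L-cDC2. Treml1, the platelet member, was at 0 in all 12 libraries.

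The adaptors and kinases below the activating receptors were mostly lower in cDC1. Of 13 listed genes, all tested, 9 were called lower and 1 higher in cDC1 within M, and 10 lower and 2 higher within L, by limma, against 25.4% of all genes lower and 12.7% higher within M and 26.6% and 12.9% within L. The list's median difference was -1.16 on the log2(FPKM + 1) scale within M and -0.91 within L, beside -0.18 and -0.19 for all genes. Fcer1g, the Fc receptor gamma chain, measured 30.2, 25.7 and 27.0 FPKM in the L-cDC1 libraries, 59.8, 62.3 and 50.3 in M-cDC1, 743, 739 and 846 in L-cDC2, and 978, 1216 and 1114 in M-cDC2. No group overlapped another. The subset difference was -4.24 within M (SE 0.112, limma adjusted p = 4.73e-12) and -4.76 within L (adjusted p = 1.89e-12).

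Fcer1g was also the 1 gene of the 13 called between L and M in both subsets. L minus M was -1.03 in cDC1 (limma adjusted p = 0.000676) and -0.50 in cDC2 (adjusted p = 0.0342), with every L library below every M library. The cDC1 call held in all 22 alternatives. The cDC2 call was lost in 10, among them without L-cDC2 replicate 1 (adjusted p = 0.132) or 2 (0.153), M-cDC1 replicate 1 (0.0524) and M-cDC2 replicate 2 (0.162) or 3 (0.132). With the replicate block its adjusted p was 0.0540.

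Tyrobp, which encodes DAP12, was the most abundant gene of the list. It measured 732 ± 36.7 FPKM in the L-cDC1 libraries, 870.1 ± 25.0 in M-cDC1, 1560 ± 87.9 in L-cDC2 and 2032 ± 213 in M-cDC2. Its subset difference was -1.22 within M (SE 0.0902, limma adjusted p = 1.2e-07) and -1.09 within L (adjusted p = 3.89e-07), narrower than that of Fcer1g. L minus M was -0.25 in cDC1 (adjusted p = 0.349) and -0.38 in cDC2 (adjusted p = 0.0541), which passed the threshold in 5 alternatives, with the replicate block (limma adjusted p = 0.0195) and without M-cDC2 replicate 1 (adjusted p = 0.0175) among them. Hcst, which encodes the related adaptor DAP10, was lower in cDC1 within L (-0.53, limma adjusted p = 0.0068), a call lost with median-of-ratios scaling (-0.34, adjusted p = 0.0649) and with limma-voom (adjusted p = 0.263).

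Further down the same pathway, Syk, the kinase that binds ITAMs, was lower in cDC1 at -1.91 within M and -1.69 within L on the log2(FPKM + 1) scale. The scaffold genes Lcp2 (-1.53 and -1.55) and Lat2 (-0.92 and -0.91) were lower in both, as were Pik3cd (-1.20 and -1.28), Malt1 (-1.97 and -2.12) and Bcl10 (-0.47 and -0.66), the last pair being partners of the adaptor CARD9. Card9 itself was lower at -1.16 within M (limma adjusted p = 0.0011) and -0.68 within L (adjusted p = 0.0290). The L call was lost in 8 alternatives, among them without L-cDC1 replicate 1 (limma adjusted p = 0.0626) or 2 (0.110) and L-cDC2 replicate 1 (0.0993) or 2 (0.108). Btk was higher in cDC1, by 0.52 within M and 0.34 within L, and Vav1 was higher within L (0.51).

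Genes of inhibitory signalling and the Src kinases, which phosphorylate ITIMs and ITAMs, divided similarly. Of 8 genes tested, 4 were called lower and 1 higher in cDC1 by limma, within M and within L, where 25.4% and 26.6% of all genes were lower and 12.7% and 12.9% higher. Between L and M, 0 of 8 were called in either subset (0.394% of all genes in cDC1 and 1.83% in cDC2) by limma or limma-voom (at an unadjusted p under 0.05, 0 in cDC1 and 1 in cDC2). Ptpn6, which encodes the phosphatase that CD300A and CD300LF recruit, measured 141 ± 26.5 FPKM in the L-cDC1 libraries, 134 ± 22.9 in M-cDC1, 586 ± 10.6 in L-cDC2 and 595 ± 20.6 in M-cDC2. Its subset difference was -2.16 within M (SE 0.132, limma adjusted p = 1.65e-08) and -2.06 within L (adjusted p = 2.53e-08). Fgr, a Src kinase of myeloid cells, measured 15.3 ± 0.664 FPKM in the M-cDC1 libraries and 197 ± 13.03 in M-cDC2, a difference of -3.61 (limma adjusted p = 1.09e-11), and -3.60 within L. Csk (-1.15 and -1.05) and Lyn (-0.74 and -0.66) were lower in cDC1 as well. Inpp5d, which encodes the lipid phosphatase SHIP-1, was higher in cDC1 by 0.59 within M and 0.74 within L.

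**Figure D5:**
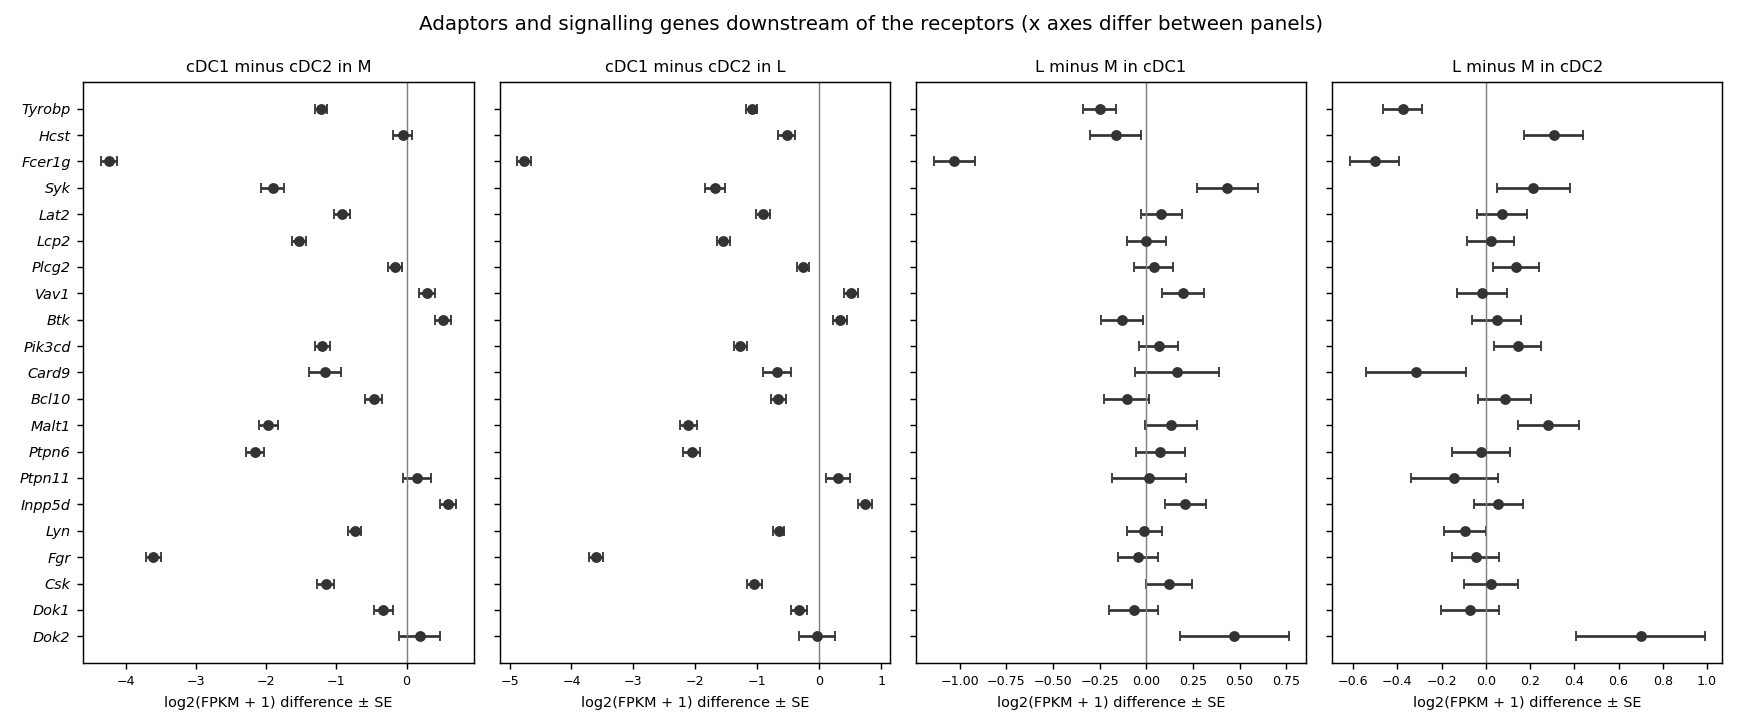
Log2(FPKM + 1) difference ± SE of adaptor genes and signalling genes downstream of the receptors, 1 panel per comparison with its own x axis, from limma on 12 libraries. In the 2 panels between cDC1 and cDC2 most lie left of 0, lower in cDC1, whereas Inpp5d lies right of 0. Farthest out there are Fcer1g at -4.24 within M and -4.76 within L and Fgr at -3.61 and -3.60. In the L minus M panels the medians of the adaptor and inhibitory lists lie between -0.03 and 0.07.

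Ligands, coreceptors and sheddases of the receptors formed a list of 9 genes, of which 6 were tested and 4 were called lower and 1 higher in cDC1 by limma, within M and within L, against 25.4% and 26.6% of all genes lower and 12.7% and 12.9% higher. Lgals3, which encodes galectin-3, a reported ligand of TREM2, measured 348, 333 and 388 FPKM in the L-cDC1 libraries, 321, 404 and 346 in M-cDC1, 36.8, 48.9 and 43.2 in L-cDC2, and 83.2, 122 and 91.5 in M-cDC2. The cDC1 groups overlapped, and every L-cDC2 library was below every M-cDC2 library. It was higher in cDC1 by 1.86 within M (limma adjusted p = 2.21e-07) and 3.03 within L (adjusted p = 1.31e-09), and L minus M in cDC2 was -1.17 (SE 0.146, adjusted p = 0.00045). Its L minus M value differed between the subsets by the limma interaction (adjusted p = 0.0286), in the direction of 0.193% of all genes, and that call was lost in 12 of 21 alternatives.

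Apoe, which encodes the lipid carrier that TREM2 binds, measured 77.8, 139 and 105 FPKM in L-cDC2 against 48.3, 50.01 and 50.9 in M-cDC2, so the L libraries were all higher. L minus M in cDC2 was 1.05 on the log2(FPKM + 1) scale (SE 0.186, limma adjusted p = 0.00774), a call lost with no filter (adjusted p = 0.0520) and with only the 6 libraries compared (0.0528). Within L it was lower in cDC1 at -0.68 (adjusted p = 0.0106), a call lost without L-cDC2 replicate 2 (adjusted p = 0.0543) and with median-of-ratios scaling (0.0585). Il4ra, a chain of the IL-4 receptor that CD300LF associates with, was lower in cDC1 at -0.77 and -0.53 within M and L, and the L call was lost with median-of-ratios scaling (-0.34, limma adjusted p = 0.0719) and with limma-voom (0.0583). The sheddase gene Adam10 (-0.70 and -0.60) was also lower in both, though its call within L was lost without L-cDC1 replicate 2 (limma adjusted p = 0.0694) or L-cDC2 replicate 2 (0.0689), with limma-voom (0.0778) and with either rescaling (0.0910 by quantile normalization and 0.0872 by median-of-ratios), and that within M by quantile normalization (0.0564). Hmgb1, a reported TREM1 ligand, was lower at -0.31 and -0.52, and Adam17 at -0.43 within M.

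Genes beside the clusters, within 100 kb, did not follow 1 direction. Of 8 neighbours of the Cd300 cluster, 5 were tested. Gprc5c was higher in cDC1 by 3.05 within M and 1.86 within L by limma on the log2(FPKM + 1) scale, and higher in L-cDC2 (3.05 ± 0.451 FPKM) than in M-cDC2 (0.723 ± 0.395), by 1.26 (adjusted p = 0.00556, and 0.0580 with only the 6 libraries compared). Rab37, a small GTPase gene, was lower in cDC1 at -3.04 and -3.43, and Slc9a3r1 at -1.11 and -1.21. Tmem104 was lower within M at -0.57 (limma adjusted p = 0.0147), a call lost without M-cDC2 replicate 1 (0.0676), with quantile normalization (-0.29, adjusted p = 0.207), with median-of-ratios scaling (0.0809) and with limma-voom (0.0781). Beside the Trem cluster, 4 of 8 neighbours were tested, and A530064D06Rik (-1.52 and -1.63) and Oard1 (-0.82 and -0.85) were lower in cDC1.

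The tested protein-coding genes most like each of the 4 most abundant members were taken by Pearson r of log2(FPKM + 1) over the 12 libraries. Gene models with names of Gm and a number or ending in Rik were left out. The libraries share the same 4 groups. Treml4 was nearest to Cst3 (r = 0.995), Mpeg1 (0.994) and Sdad1 (0.993). Cd300c2 was nearest to Fcer1g (0.989), Igsf6 (0.988) and Cd300a (0.986). For Cd300a these were Slc38a2 (0.996), Ms4a6c (0.996) and Ctsh (0.995), and for Cd300lf they were Il1r2 (0.998), Ssh2 (0.996) and Abcb1a (0.995).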

How the data were processed

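RNA was extracted and made into cDNA libraries with a SMART-Seq kit and a Nextera kit, per the labels' protocols, and neither marks the strand of the RNA. The authors deposited FPKM values for 55322 rows and 12 libraries. The submitters' processing notes name STAR 2.7.9a, featureCounts 2.0.1, cutadapt 3.7, Trim Galore 0.6.7, Trimmomatic 0.39, DESeq2 1.20.0 and, for these mouse data, build GRCh38, with no role or order. The build of the table's coordinates is not given in the sources used here. FPKM times gene length gave whole reads within 0.01 read for 100% of values, and 3 reads were taken as the floor.

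Genes with at least 1 FPKM in 3 of 12 libraries (12434) were fitted as log2(FPKM + 1) with limma 3.58.1 in R 4.3.3, with 1 mean per group (8 residual degrees of freedom) and the trend option, and p-values were adjusted by Benjamini-Hochberg over all genes per comparison. Such differences understate changes at low levels. The script was tested on simulated data. Named were all members, called list genes with a difference of at least 0.5, a few further genes of the lists, Tyrobp, Fcer1g and Ptpn6, and 3 genes of like pattern for each of 4 members. Alternatives changed the pseudocount, filter, scaling, trend, libraries, replicate block or model (limma-voom on reads). The members and lists were chosen with earlier results of these data known. Of the lists, 1 gene is not reported here.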

Additional observations from a re-analysis of the deposited data

Results flagged for a closer look

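Lgals3 was the 1 gene outside the members, among the receptor partners, whose L minus M difference itself differed between the subsets: 1.17 on the log2(FPKM + 1) scale (SE 0.206, limma interaction adjusted p = 0.0286). It measured 356 ± 28.4 FPKM in the L-cDC1 group, 357 ± 42.5 in the M-cDC1 group, 43.0 ± 6.09 in L-cDC2 and 98.8 ± 20.2 in M-cDC2. The call was lost in 12 of 21 alternatives, 10 of which left out 1 library, with adjusted p-values up to 0.148 when no filter was applied.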

How the results depend on the processing

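Each comparison was run again under 22 alternatives, or 21 for the interaction, 12 of which left out 1 library. Between cDC1 and cDC2, counts of genes and partner genes called stayed within 1.5 times. Between L and M in cDC1, genes called numbered 49, against 80 with a pseudocount of 0.1, 14 with no filter and 17 with only the 6 libraries compared, and 24 to 102 without 1 library. In cDC2, genes called numbered 227, against 137 with 6 libraries and 146 to 232 without 1 library. Partner genes were 4, against 2 with no filter, 1 with 6 libraries and 2 to 5 without 1 library. By the interaction, genes called numbered 37, against 21 with a pseudocount of 0.1, 10 with limma-voom and 10 to 38 without 1 library. Partner genes were 1, against 0 with no filter and with no trend, and 0 to 1 without 1 library. The cause was not tested.

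Ptpn6 between L and M changed sign: without 1 library it ran from -0.0702 (L-cDC1 replicate 3 left out) to 0.211 in cDC1, from -0.0364 to 0.0081 (M-cDC2 replicate 2 left out) in cDC2, where quantile normalization gave 0.0226, and from -0.0498 (L-cDC1 replicate 3 left out) to 0.231 by the interaction. It was called in none. The replicate block gave 45, 233, 4754, 4952 and 25 genes called in the 5 comparisons. Libraries of different groups were also correlated after each gene's group mean was subtracted, so these values describe what is left and not the likeness of whole libraries. Those of the same number correlated over 0.1 in 3 of 18 pairs (median 0.0340, against -0.0180 for other numbers). This was short of every pair, and the labels name no shared origin, so the numbers were not taken to pair the samples. That 11 of 12 libraries correlated best with their own number is a hint from the data, not from the design. With the block, L minus M in cDC2 of Tyrobp was called and that of Fcer1g was not. Depth limits Cd300lb and Cd300ld in cDC1, where limma-voom widened their subset differences to -9.81 and -8.65 within M.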
